A study of Mus musculus with 14 samples.

Results

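The comparison described here was that of mature luminal cells with MaSC/basal cells of the adult mouse mammary gland, 3 samples of each, taken from the same 3 mouse pools. Its members were the 6 samples labelled mature luminal 1 to 3 and MaSC/basal 1 to 3, of 14 samples in all, and every miRNA probe with a normalized value of at least 2 in at least 3 of these 6 samples, which 355 of 584 probes met. Mature luminal cells were sorted as CD29lo CD24+ CD61- and MaSC/basal cells as CD29hi CD24+, from untreated FVB/N mice whose glands were pooled, so that a sample stands for a set of mice and not for 1 animal. The MaSC/basal gate holds stem cells, basal progenitors and mature myoepithelial cells, and its RNA is that of the mixture. Luminal progenitor samples 1 to 3 (CD29lo CD24+ CD61+), from the same pools, shared the estimate of the spread, and 4 stromal samples were not used in the test. MiRNAs were read by RT-PCR on the array plates A and B, and each level below is a normalized log2 value, on which 1 unit is a doubling. A reaction with nothing detected has a cycle threshold (Ct) of 40 and ends near a value of 0.5.

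Mammary ducts are built of an inner luminal layer and an outer basal layer, whose myoepithelial cells carry a contractile, smooth-muscle-like programme, and mature luminal cells include the hormone-sensing cells of the duct. A miRNA is cut from a hairpin precursor, and its guide strand directs a silencing complex to mRNAs that pair with its seed, the stretch from base 2 to base 8. MiRNAs with the same seed can therefore share targets even where they are made from different genes. Members of the miR-200 family, for example, hold epithelial cells in their epithelial state by silencing Zeb1 and Zeb2, and miR-143 and miR-145 are typical of smooth muscle.

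The sequences below are the RefSeq mature miRNAs (GRCm38.p6) of assays on which the comparison turned, with the seed in capitals. For assays whose name gives no arm, the arm was assigned by the usual name of the guide strand. Of the 355 tested probes, 179 were matched to a mature sequence, and of the 173 called probes, 100. The first set is shown because each of its 4 seeds had members that differed in opposite directions, and miR-125a-5p, which was not called, is shown beside its relatives.
miR-211-5p: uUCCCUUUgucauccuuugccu
miR-204-5p: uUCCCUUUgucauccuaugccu
miR-351-5p: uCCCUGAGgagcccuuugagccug
miR-125b-5p: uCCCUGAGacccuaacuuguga
miR-125a-5p: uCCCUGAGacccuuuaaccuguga
miR-148a-3p: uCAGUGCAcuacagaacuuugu
miR-152-3p: uCAGUGCAugacagaacuugg
miR-130b-3p: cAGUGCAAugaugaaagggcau
miR-130a-3p: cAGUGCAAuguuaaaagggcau

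The second set shows the miR-34 arms, the miR-200 family, in which 2 seeds differ in 1 base, and the miR-15 and miR-322 group, which held calls in both directions.
miR-34a-5p: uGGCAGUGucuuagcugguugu
miR-34b-3p: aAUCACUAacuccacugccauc
miR-34c-3p: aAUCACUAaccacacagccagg
miR-200b-3p: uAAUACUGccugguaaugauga
miR-200c-3p: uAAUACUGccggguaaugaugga
miR-200a-3p: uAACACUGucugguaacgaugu
miR-141-3p: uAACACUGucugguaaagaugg
miR-322-5p: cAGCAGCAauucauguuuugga
miR-503-5p: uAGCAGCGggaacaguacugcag
miR-15a-5p: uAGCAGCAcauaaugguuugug
miR-16-5p: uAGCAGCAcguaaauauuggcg
miR-195a-5p: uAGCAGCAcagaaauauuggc
miR-497a-5p: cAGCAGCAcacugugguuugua

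The third set gives miRNAs that share a seed with no other member shown. MiR-592, miR-184 and miR-205 were among the most different, and miR-203 is shown beside miR-205.
miR-592-5p: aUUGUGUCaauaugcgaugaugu
miR-184-3p: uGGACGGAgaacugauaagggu
miR-203-3p: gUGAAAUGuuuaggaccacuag
miR-205-5p: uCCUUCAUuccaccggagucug
MiR-211-5p differs from miR-204-5p at 1 base of 22. Counted from the 5′ end of miR-204-5p, the change is A17U, which lies outside the seed. On GRCm38.p6, miR-211-5p is at chr7:64205831-64205852 within the span of Trpm1, and miR-204-5p is at chr19:22750610-22750631 within Trpm3. MiR-592-5p (chr6:27936711-27936733) lies within Grm8, and miR-34b-3p (chr9:51103574-51103595) and miR-34c-3p (chr9:51103044-51103065) lie within the spans of Hoatz and Btg4. No annotated host gene overlapped miR-34a-5p (chr4:150068473-150068494), miR-184-3p (chr9:89802263-89802284), miR-203-3p (chr12:112130927-112130948) or miR-205-5p (chr1:193507503-193507524).

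One library went against its label. A further sample is labelled MaSC/basal 4 and comes from a pool with no other sample. Among the 83 called probes that differed at least 4-fold between the populations, 76 lay nearer to the mature luminal mean than to the MaSC/basal 1 to 3 mean in this library. On a scale where 1 is the mature luminal mean and 0 the MaSC/basal mean, its median position over these probes was 0.993. The root mean square log2 distance of this library over the tested probes was 2.05 to 2.33 to the mature luminal samples, 2.18 to 2.57 to the luminal progenitors and 3.06 to 3.44 to MaSC/basal 1 to 3, which were 1.51 to 1.98 from one another. Mature luminal samples were 1.05 to 1.71 from one another and 2.10 to 2.64 from luminal progenitors. The library thus lay farther from each mature luminal sample than those lay from one another. MiR-375, for example, was 20.68 in the library labelled MaSC/basal 4, where mature luminal samples had 20.58 to 21.04 and MaSC/basal 1 to 3 had 13.79 to 14.61. The comparison was defined without this library because it is absent from the authors' figure. It was left out of each test below and is shown apart. With it included as a MaSC/basal sample and no term for pool, 8 probes were called, 6 higher and 2 lower in mature luminal cells, against 149 without it in the same model.

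**Figure D1:**
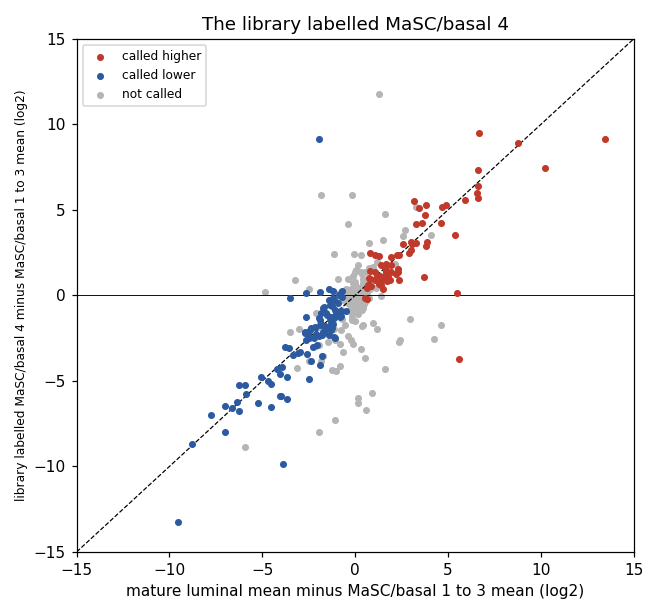
Each point is 1 of the 355 tested probes. The x axis is the log2 difference of the mature luminal mean from the MaSC/basal 1 to 3 mean, and the y axis is the log2 difference of the library labelled MaSC/basal 4 from the same MaSC/basal mean. On the dashed line that library equals the mature luminal mean and on the horizontal line it equals the MaSC/basal mean, and 76 of the 83 called probes past 4-fold lie nearer to the dashed line.

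The labelled populations were checked against marker miRNAs, whose counts stand beside shares of 20.3% higher and 28.5% lower over all 355 tested probes. All 5 basal and myoepithelial markers (miR-143, miR-145, miR-205, miR-221 and miR-222) were lower in mature luminal cells, and their summed level on the log2 scale was 24.21 to 24.58 in mature luminal samples and 28.79 to 29.75 in MaSC/basal samples. Of the 6 luminal and simple epithelial markers, 4 were higher in mature luminal cells and 2 were not called, with summed levels of 27.44 to 28.36 in mature luminal samples and 26.79 to 27.26 in MaSC/basal samples. None of the 5 blood cell and 2 endothelial markers tested was called. Of the 5 fibroblast markers, 2 were lower in mature luminal cells, miR-152 and miR-199a-3p. The summed level was 21.15 to 21.71 in mature luminal samples and 22.25 to 22.97 in MaSC/basal samples. That sum of linear levels rests mostly on miR-152, with means of 20.85 and 22.38. MiR-10b differed the other way (0.66, not called), and miR-214 (-0.59) and miR-199a-5p (-1.06) were not called. Of the 4 neural markers, miR-128a was higher and miR-124 lower in mature luminal cells, with summed levels of 16.86 to 17.03 in mature luminal samples and 15.66 to 15.82 in MaSC/basal samples. Of the 2 adipocyte and liver markers, miR-122 was higher and miR-143, which is also a basal marker, was lower. The call of miR-124 was lost in 8 of 23 alternatives, with the one that includes the library labelled MaSC/basal 4 set aside here and below (adjusted p = 0.0125 to 0.13), 6 of them fits that left out 1 sample, and that of miR-122 in 10 of 23 (0.00281 to 0.15), 6 of them such fits. The call of miR-199a-3p was lost in 6 of 23 (adjusted p = 0.00177 to 0.677). Those of miR-152 and miR-221 were lost with no normalization (0.317 and 0.0637), and that of miR-128a with U6 alone as the reference (0.114). The part of blood, endothelial, fibroblast, neural, adipocyte or liver cells in the results below was not tested. Each mature luminal sample had 352 to 362 detected assays and each MaSC/basal sample 346 to 366 (exact permutation test, two-sided p = 0.8, where 0.1 is the smallest p possible).

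A large share of the miRNAs measured in these cells differed between the populations. Of the 355 probes tested, 173 (48.7%) passed an adjusted p of 0.05 in limma with mouse pool as a block, of which 72 (20.3%) were higher and 101 (28.5%) lower in mature luminal cells. The median log2 difference over all tested probes was -0.10. At least a 4-fold difference was seen for 36 of the higher and 47 of the lower probes, and at least a 16-fold difference for 15 and 19. The 3 mature luminal and 3 MaSC/basal samples did not overlap for 191 probes (53.8%), of which 78 (22%) were higher and 113 (31.8%) lower in mature luminal cells. Plate A gave 61 higher and 78 lower calls, and plate B, which holds mainly passenger strands, gave 11 and 23. A probe detected in all 6 samples had a median SD of 0.41 among mature luminal samples and 0.42 among MaSC/basal samples. In sorted populations, fewer cells of a type and less miRNA per cell cannot be told apart. The split between higher and lower calls depended on the scaling. Higher levels in mature luminal cells made up 41.6% of the calls with the deposited normalization. The share was 20.7% when U6 was the sole reference and 55.3% after each sample was centred on its median. On plate A, U6 itself had Ct values of 11.72, 12.60 and 11.77 in mature luminal samples. In MaSC/basal samples it had 13.16, 14.19 and 12.44. The part of this difference in the split was not tested.

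**Figure D2:**
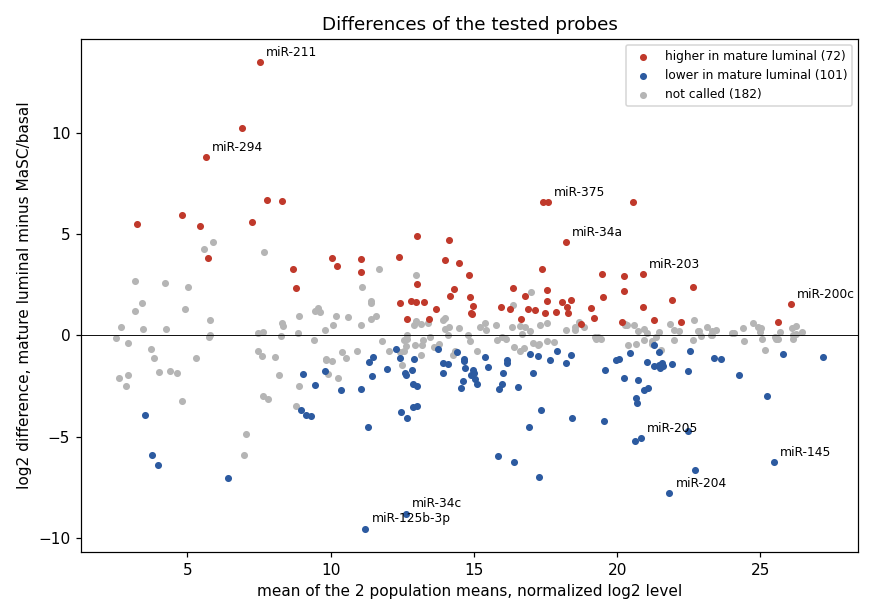
Each point is a tested probe, placed by the mean of its mature luminal and MaSC/basal means on the x axis (normalized log2 level) and by its log2 difference, mature luminal minus MaSC/basal, on the y axis. The 72 probes called higher and 101 called lower in mature luminal cells span the whole range of levels, with miR-211 (at least 13.47) farthest above 0 and miR-125b-3p (-9.54) farthest below.

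MiR-375, miR-592 and miR-184 had about equally large differences among the miRNAs that were higher in mature luminal cells. MiR-375, best known from pancreatic islets, had levels of 21.02, 21.04 and 20.58 in mature luminal samples and 14.61, 14.47 and 13.79 in MaSC/basal samples, a log2 difference of 6.59 ± 0.18 (SE; 96.1-fold, adjusted p = 2.647e-05). MiR-592 had 21.13, 21.13 and 19.92 in mature luminal samples and 14.44, 14.23 and 13.72 in MaSC/basal samples (log2 difference 6.59 ± 0.27, adjusted p = 2.647e-05). MiR-184, a miRNA of the cornea and skin epithelium, had 24.20, 24.48 and 22.84 in mature luminal samples, against 17.80, 17.46 and 16.60 in MaSC/basal samples (6.56 ± 0.26). In each of the 3 miRNAs, the lowest mature luminal sample stood more than 5 log2 units above the highest MaSC/basal sample. Between mature luminal cells and luminal progenitors, 97 tested probes (27.3%) differed, 46 (13%) higher and 51 (14.4%) lower in mature luminal cells. All 3 miRNAs were among the higher ones, by 2.41 for miR-375, 2.43 for miR-592 and 2.50 for miR-184 (adjusted p = 0.00163, 0.00572 and 0.00486).

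MiR-203, which restrains p63 and the proliferative state in skin, was higher by 3.04 ± 0.18, with levels of 22.02, 22.26 and 22.96 in mature luminal samples and 19.09, 19.21 and 19.81 in MaSC/basal samples. MiR-205, which like miR-203 is typical of stratified epithelium, moved the other way. It had 17.96, 17.72 and 19.21 in mature luminal samples and 22.88, 23.91 and 23.35 in MaSC/basal samples, a log2 difference of -5.09 ± 0.40 (adjusted p = 0.00033). The samples of the 2 populations did not overlap for either miRNA. Neither differed from luminal progenitors at the threshold, with mature luminal minus luminal progenitor differences of 0.63 for miR-203 and -0.86 for miR-205 (adjusted p = 0.0544 and 0.158).

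Among the miRNAs that were lower in mature luminal cells were miR-143 and miR-145, which promote the contractile state of smooth muscle. MiR-145 had levels of 21.96, 22.67 and 22.35 in mature luminal samples and 28.05, 29.20 and 28.54 in MaSC/basal samples (log2 difference -6.27 ± 0.22, adjusted p = 2.647e-05). MiR-143, made from the same locus, had 19.03, 19.65 and 19.45 in mature luminal samples and 25.59, 26.65 and 25.85 in MaSC/basal samples (-6.65 ± 0.25). In comparison with luminal progenitors, both were again lower in mature luminal cells, with log2 differences of -1.13 for miR-143 and -1.32 for miR-145 (adjusted p = 0.03 and 0.0147). MiR-221 and miR-222, which silence the cell cycle inhibitor p27, were lower by log2 differences of -2.20 ± 0.20 and -2.99 ± 0.27. The summed fibroblast marker level above, which rests mostly on miR-152, differed in the same direction, by less than 2 units.

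Of the 5 muscle assays, 4 were lower in mature luminal cells and 1 was higher, where 28.5% of all tested probes were lower and 20.3% higher. MiR-133a fell by 5.23 on the log2 scale, miR-133b by 4.51, and the mouse and rat assays for miR-1 by 3.70 and 4.07. MiR-206, which lies in the same long non-coding transcript, Lincmd1, as miR-133b on chromosome 1, was higher by 1.47 ± 0.38 (adjusted p = 0.02435), with levels of 16.07, 15.82 and 15.17 in mature luminal samples and 15.07, 13.40 and 14.19 in MaSC/basal samples. This call was lost in 8 of the 22 alternatives that measured miR-206 (adjusted p = 0.00884 to 0.216 over them), among them U6 alone as the reference (0.216), no normalization (0.0734), and leaving out mature luminal 1 (0.0757) or mature luminal 2 (0.0966). Against luminal progenitors, the same miRNAs were higher in mature luminal cells, by log2 differences of 1.87 for miR-133a, 3.32 for miR-133b, 3.01 for the mouse miR-1 assay and 2.70 for miR-206 (adjusted p at most 0.0169). Mature luminal means for miR-133a, miR-133b and miR-1 thus lay between those of the other epithelial populations.

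**Figure D3:**
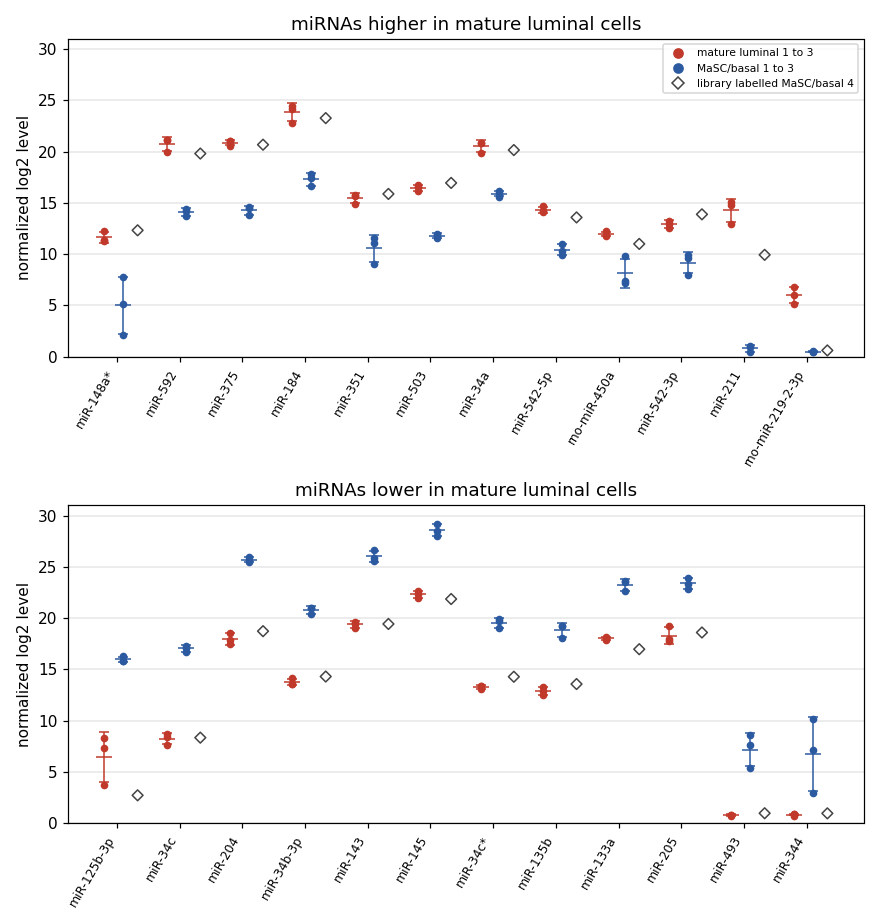
Normalized log2 levels (y axis) of the 24 miRNAs chosen by the size of their difference, 12 higher and 12 lower in mature luminal cells. Filled points are samples, with mature luminal 1 to 3 left of MaSC/basal 1 to 3, horizontal marks and bars are means and SD, and open diamonds are the library labelled MaSC/basal 4. The diamond of miR-375 (20.68) lies among the mature luminal samples and that of miR-145 (21.86) just below them.

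MiR-211 and miR-204, of 1 seed, differed in opposite directions. MiR-211 was detected at 14.78, 15.05 and 12.97 in mature luminal samples and had a Ct of 40 in all 3 MaSC/basal samples, so that the log2 difference was at least 13.47. The probe passed the filter through its mature luminal samples alone, so no p is given for it. MiR-204, a miRNA of the retinal pigment epithelium, had 17.43, 17.82 and 18.57 in mature luminal samples and 25.65, 25.48 and 26.00 in MaSC/basal samples, a difference of -7.77 ± 0.24 (adjusted p = 2.647e-05). The MaSC/basal samples, with the higher miR-204 levels, thus gave no signal in the assay for miR-211, which differs from miR-204 by the single base A17U. In luminal progenitors miR-211 was at 4.10, 3.69 and 0.98, the last a Ct of 40, which left mature luminal cells higher by at least 11.34, and miR-204 was lower in mature luminal cells than in luminal progenitors (-1.18, adjusted p = 0.0222). In the library labelled MaSC/basal 4, miR-211 was 9.93 and miR-204 18.72.

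The miR-34 family split in the same manner. MiR-34a, a p53 target that halts the cell cycle, was at 20.87, 20.87 and 19.86 in mature luminal samples and 15.99, 15.60 and 16.15 in MaSC/basal samples, a log2 difference of 4.62 ± 0.32 (adjusted p = 0.000212). MiR-34c had 8.38, 7.66 and 8.67 in mature luminal samples and 17.09, 17.30 and 16.70 in MaSC/basal samples (-8.79 ± 0.44, adjusted p = 6.867e-05). From the same locus on chromosome 9, miR-34b-3p was lower (log2 difference -7.01 ± 0.28), as was the passenger strand miR-34c* (-6.27 ± 0.34), and both have the seed AUCACUA. MiR-449a, which shares the guide seed of miR-34a, did not pass the test (0.44 ± 2.15). Of these, miR-34a, miR-34b-3p, miR-34c and miR-34c* did not differ between mature luminal cells and luminal progenitors at the threshold (differences of 0.79, -0.82, 0.08 and -0.99).

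Among the matched probes, 13 shared seeds had at least 2 called probes, and 5 of these held calls in both directions. One of the 5 is UCCCUUU, whose count rests on miR-211, a probe that passed the filter through mature luminal samples alone. For the seed CCCUGAG, miR-351 was higher, with levels of 15.78, 14.88 and 15.69 in mature luminal samples and 11.58, 9.08 and 11.07 in MaSC/basal samples (log2 difference 4.87 ± 0.49). MiR-125b-5p, which has been tied to stem cell maintenance, was lower, with 20.01, 20.42 and 19.95 in mature luminal samples and 24.57, 25.32 and 24.64 in MaSC/basal samples (-4.72 ± 0.18). Its passenger strand miR-125b-3p had the largest fall among probes detected in all 6 samples, with 3.70, 7.34 and 8.30 in mature luminal samples and 15.85, 16.27 and 15.82 in MaSC/basal samples (-9.54 ± 0.92, adjusted p = 0.000761). The value 3.70 lies under 5.5, which is a Ct of 35 before normalization, so the size of the fall is less certain. The call was kept in all 23 alternatives (adjusted p at most 0.0112), 1 of which set values under 5.5 to 5.5. MiR-125a-5p was not called (0.77 ± 0.32, adjusted p = 0.09526). Of the neighbours of the miR-125 genes, miR-100 (-3.36) and miR-99a (-3.08) were lower, and miR-99b (0.31), let-7e (0.00) and let-7c (-0.18) were not called. MiR-99a and a copy of let-7c lie side by side on chromosome 16, and the passenger strands let-7c-1* (-2.50) and rno-miR-99a* (-3.78) were both lower. For the seed CAGUGCA, miR-148a (3.01 ± 0.24) and miR-148b (1.04 ± 0.16) were higher and miR-152 (-1.52 ± 0.21) was lower. For AGUGCAA, miR-130b (1.08 ± 0.16) was higher and miR-130a (-0.82 ± 0.25) and miR-301a (-1.49 ± 0.22) were lower. The call of miR-130a was lost in 15 of 23 alternatives (adjusted p = 0.00947 to 0.908), among them no term for pool (0.0619), median centring (0.3) and each fit that left out 1 sample other than MaSC/basal 1 (0.0514 to 0.145). That of miR-148b was lost in 4 of 23 (0.000264 to 0.527), among them no term for pool (0.109) and U6 alone as the reference (0.527). That of miR-130b was lost in 2 of 23 (8.67e-05 to 0.358), U6 alone (0.358) and no normalization (0.0772). With no normalization, miR-152 and miR-301a were not called either (0.317 and 0.378).

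**Figure D4:**
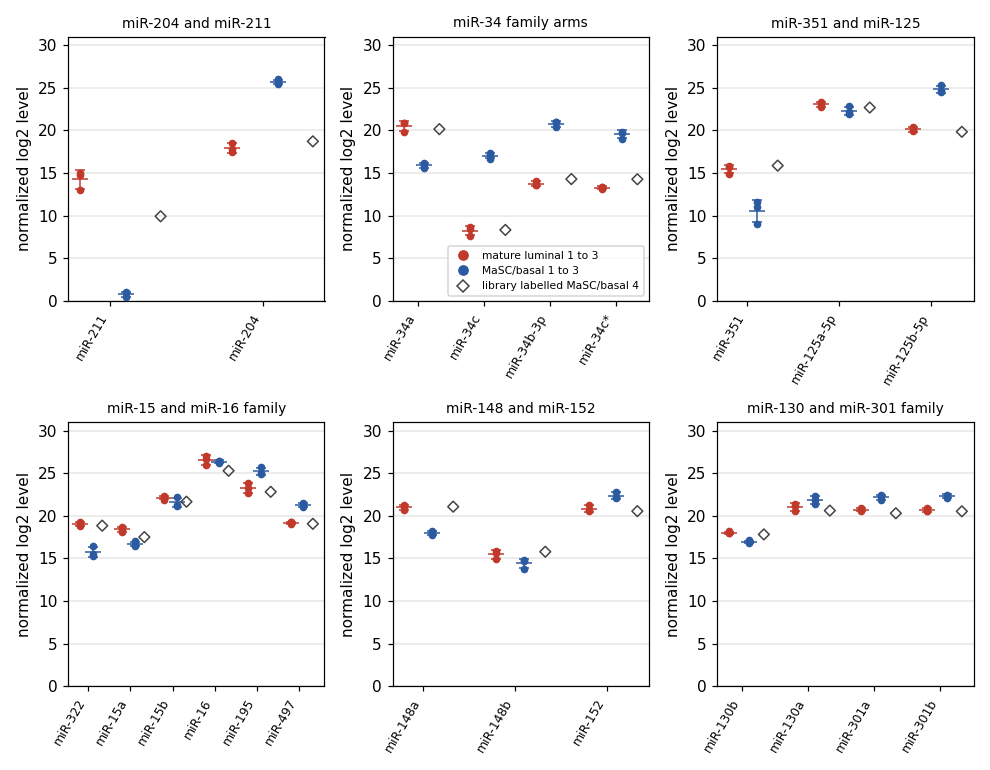
Normalized log2 levels (y axis) of related miRNAs, 1 panel to a group, in mature luminal 1 to 3 (left, filled), MaSC/basal 1 to 3 (right, filled) and the library labelled MaSC/basal 4 (open diamond), with means and SD. MiR-211, at 12.97 to 15.05 in mature luminal samples, is at the floor in MaSC/basal samples, where miR-204 is at 25.48 to 26.00.

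Of the miR-200 family, which guards the epithelial state, 3 of 5 members were higher and 2 were not called, where 20.3% of all tested probes were higher, with a median log2 difference of 0.66 against -0.10 over all tested probes. MiR-141 had 22.87, 23.41 and 22.04 in mature luminal samples and 20.71, 21.31 and 21.07 in MaSC/basal samples (1.74 ± 0.33, adjusted p = 0.007452). MiR-200c had 26.79, 27.24 and 26.49 in mature luminal samples and 25.34, 25.26 and 25.35 in MaSC/basal samples (1.52 ± 0.25, adjusted p = 0.0043). Both come from the locus on chromosome 6. Of the chromosome 4 locus, miR-200b was called (0.66 ± 0.18, adjusted p = 0.02788), and miR-200a (0.16, 95% interval -0.46 to 0.79) and miR-429 (0.13, -0.52 to 0.78) were not. The seeds AAUACUG and AACACUG each had members of either kind. The call of miR-200b was lost in 12 of 23 alternatives (adjusted p = 0.00154 to 0.229), among them no term for pool (0.152), U6 alone as the reference (0.227) and leaving out mature luminal 1 (0.103), mature luminal 2 (0.114), MaSC/basal 1 (0.105), MaSC/basal 2 (0.102) or MaSC/basal 3 (0.0622). That of miR-141 was lost in 1 of 23 (0.000622 to 0.0628), with U6 alone, and that of miR-200c in none. All 5 members were detected in each of the 6 samples, with MaSC/basal means of 21.03 for miR-141 and above 23 for the others.

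All 8 tested probes, of 9 listed on the plates, of the miR-322 and miR-503 cluster, 6.2 kb on the X chromosome, were higher in mature luminal cells, against 20.3% of all tested probes, with a median log2 difference of 3.79 and a range of 2.55 to 4.87. They include rat assays for miR-351 and miR-450a beside the mouse ones. MiR-322*, the passenger strand of miR-322, was not on the list and was higher by 6.69 (adjusted p = 0.00268). It did not meet the rule of detection in all 6 samples without overlap, so the size of its difference is less certain. MiR-503, which with miR-322 targets cyclins and Cdc25a and slows the cell cycle, had 16.70, 16.17 and 16.59 in mature luminal samples and 11.89, 11.55 and 11.95 in MaSC/basal samples (4.69 ± 0.19). MiR-322 had 18.94, 18.85 and 19.25 in mature luminal samples, against 15.34, 15.49 and 16.43 in MaSC/basal samples (3.26 ± 0.26). The 8 probes were higher under each scaling tried. MiR-503 (-0.97, adjusted p = 0.0216) and miR-450a-5p (-1.20, adjusted p = 0.0101) were lower in mature luminal cells than in luminal progenitors. The other listed probes of the cluster had differences of -0.71 to -1.06 in that comparison and were not called. MiR-322 shares its seed with the miR-15 and miR-16 family, of which miR-15a (1.71) was higher, miR-195 (-1.94) and miR-497 (-2.09) were lower, and miR-16 (0.15) and miR-15b (0.55) were not called. The call of miR-15a was lost with U6 alone as the reference (adjusted p = 0.0933, range over 23 alternatives 2.03e-05 to 0.0933), and those of miR-195 (0.204, range 2.94e-05 to 0.204) and miR-497 (0.0927, range 1.82e-06 to 0.0927) with no normalization.

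Another X-linked group, within an intron of Clcn5, had 6 of 7 probes higher (median 1.95), against 20.3% of all tested probes, among them miR-501-3p (2.98 ± 0.41) and miR-362-3p (1.95 ± 0.31). The rat assay for miR-532-5p was higher (3.70), with means of 15.84 in mature luminal and 12.14 in MaSC/basal samples. The mouse assay was not called (-0.17 ± 0.65). Its means were 25.54 and 25.71, and its SD was 4.24 among mature luminal and 5.47 among MaSC/basal samples, so it does not settle the difference. With U6 alone as the reference, 2 of the 7 were called, and miR-188-5p (adjusted p = 0.328), miR-362-3p (0.106), miR-500 (0.0619) and miR-532-3p (0.0513) were not, each at its highest adjusted p over 23 alternatives. The embryonic stem cell clusters, whose miRNAs speed the cell cycle of pluripotent cells, had 5 of 6 tested probes higher, of 16 on the plates, at low levels, where the share over all tested probes was the same 20.3%. The call of miR-293, 1 of the 5, was lost in 13 of 22 alternatives (adjusted p = 0.00864 to 0.15), 6 of them fits that left out 1 sample. The other 4 calls were kept in every alternative that measured them. Of these 4, miR-291a-3p and miR-294 were each detected in 1 of 3 MaSC/basal samples. Both met the filter by their mature luminal samples, where they were high, so their calls follow in part from the filter. The alternative that needed a Ct below 40 in all 6 samples could not measure either. Keeping the call in the others therefore does not remove this limit. MiR-294 had 9.14, 10.06 and 10.90 in mature luminal samples and was detected in 1 of 3 MaSC/basal samples, at 2.28, with the others at 0.68 and 0.75 and a Ct of 40, so that the difference was at least 8.79. MiR-295 had 11.54, 12.08 and 12.22 in mature luminal samples and 7.28, 9.39 and 8.90 in MaSC/basal samples (3.43 ± 0.46). Both were lower in mature luminal cells than in luminal progenitors (-1.94 and -2.18, adjusted p = 0.0184 and 0.0262).

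The Dlk1-Dio3 cluster, an imprinted region whose miRNAs are expressed from the maternal chromosome, differed the other way. Of its 31 listed and tested probes (55 on the plates), 18 were lower in mature luminal cells, 13 were not called and none was higher, with a median of -1.82, where 28.5% of all tested probes were lower. Of its passenger strands outside the list, rno-miR-136* was lower (-2.64) and miR-411* (-1.93) and miR-154* (0.17) were not called. MiR-127 had 16.23, 16.05 and 16.10 in mature luminal samples and 17.99, 18.36 and 17.68 in MaSC/basal samples (-1.88 ± 0.28), and miR-434-3p had 13.79, 13.97 and 14.03 in mature luminal samples and 16.04, 16.01 and 15.56 in MaSC/basal samples (-1.94 ± 0.29). MiR-493 had a Ct of 40 in all 3 mature luminal samples and was at 5.35, 7.61 and 8.54 in MaSC/basal samples. It is counted among the 18 lower probes but passed the filter through its MaSC/basal samples alone, so its call follows from the filter. The count of lower probes was 25 with U6 alone as the reference, 20 with median centring and 8 with no normalization.

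**Figure D5:**
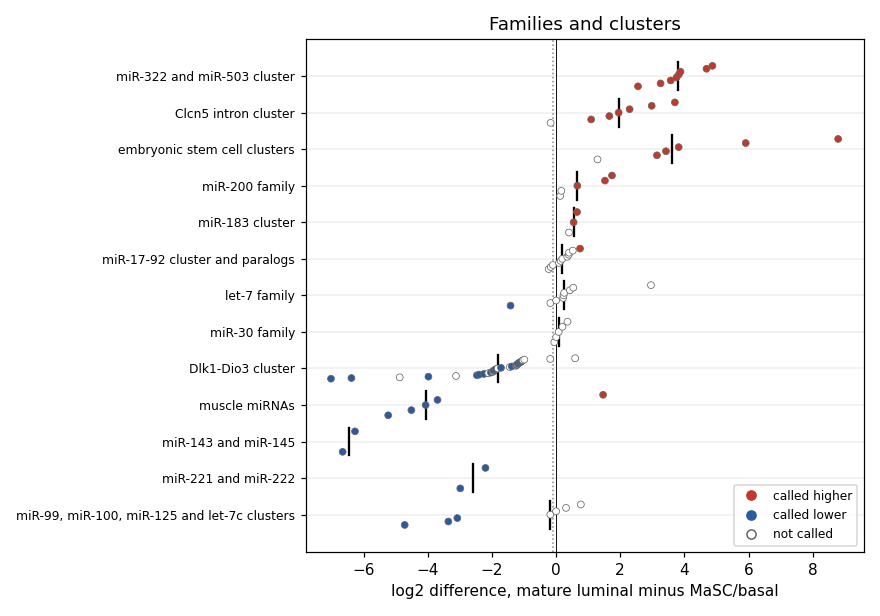
Log2 differences, mature luminal minus MaSC/basal (x axis), of the tested members of 13 families and clusters (rows). Red points were called higher, blue points called lower and white points not called, black bars are medians and the dotted line is the median of all tested probes (-0.10). The miR-322 and miR-503 cluster has all 8 points to the right, and the Dlk1-Dio3 cluster has 18 called points to the left.

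Beside shares of 20.3% higher and 28.5% lower over all tested probes, calls were few in 2 further families. Of 9 let-7 probes, members of a family that rises with differentiation, let-7i was lower (-1.42 ± 0.23) and 8 were not called, and of 11 probes of the miR-17-92 cluster and its paralogs, miR-19a was higher (0.75 ± 0.23) and 10 were not called. The call of let-7i was lost in 1 of 23 alternatives, no normalization (adjusted p = 0.354, range 0.000213 to 0.354). The call of miR-19a was lost in 12 of 23 alternatives (adjusted p = 0.00874 to 0.51), among them no term for pool (0.11) and leaving out any 1 of the 6 samples (0.0514 to 0.128). With median centring, 7 let-7 probes and 5 of the miR-17-92 group were called higher. None of the 5 miR-30 probes was called, with differences between -0.06 and 0.36. Of 182 probes not called in all, 63 had a 95% interval within 1 log2 unit of no change, and for the others the interval reached past that size.

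MiR-146a and miR-155, of immune signalling, and miR-146b were lower in mature luminal cells. MiR-146a had 19.24, 19.05 and 20.47 in mature luminal samples and 22.04, 21.80 and 23.01 in MaSC/basal samples (-2.70 ± 0.18). The difference of miR-146b, -0.92 ± 0.26, turned to 0.08 with no normalization, and that of miR-365, -0.76 ± 0.16, to 0.03. The call of miR-146b was lost in 11 of 23 alternatives (adjusted p = 0.0059 to 0.922) and that of miR-155 in 8 (0.00384 to 0.47), both with 6 samples only, median centring, no normalization and leaving out mature luminal 1, mature luminal 2, MaSC/basal 1 or MaSC/basal 2. That of miR-146a was kept in all 23 (at most 0.0376). MiR-218, which lies within the spans of Slit2 and Slit3, was at 17.42, 17.48 and 17.37 in mature luminal samples and 21.55, 21.87 and 21.54 in MaSC/basal samples (-4.23 ± 0.24). MiR-135b (-5.93 ± 0.19) and miR-140 (-1.77 ± 0.19), a miRNA of cartilage, were lower too, and the call of miR-140 was lost with no normalization (adjusted p = 0.223, range over 23 alternatives 1.05e-05 to 0.223).

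Among 58 passenger strands tested with their guide, both strands were called in 17 pairs, and all 17 had the same sign. Over all 58 pairs, 43 had the same sign and 15 the opposite one. Of these 15, 6 had 1 strand called, as for let-7g* (-1.85), rno-let-7e* (-1.32) and miR-27a* (2.19), whose guides were not called. MiR-148a and miR-148a* differed by 3.01 and 6.63, miR-141 and miR-141* by 1.74 and 1.90, miR-10a and miR-10a* by 1.40 and 1.68, miR-218 and miR-218-2* by -4.23 and -3.91, and miR-34c and miR-34c* by -8.79 and -6.27. In 16 of the 17 pairs the guide was read on plate A and the passenger on plate B, in separate reactions from the same RNA.

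For 4 called probes, the filter was passed through 1 population alone, with no value of at least 2 in the other. Besides miR-211 and miR-493, rno-miR-219-2-3p was at 5.17, 6.75 and 6.04 in mature luminal samples and undetected in MaSC/basal 1 to 3, and miR-344 was undetected in mature luminal samples and at 7.13, 2.89 and 10.13 in MaSC/basal samples. These 4 are counted among the 173 called probes, but no p is given for them, since a probe that enters through the population where it is high had to differ. MiR-504, outside the rule for named miRNAs and picked after its values were seen, had 13.04, 12.41 and 10.63 in mature luminal samples and was detected in 1 of 3 MaSC/basal samples, at 3.87, with the others at 0.74 and 0.80 and a Ct of 40, so that its log2 difference was at least 10.23.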

How the data were processed

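The authors read the Ct values of 597 assay positions on 2 plates with a manual threshold of 0.2, after 12 cycles of pre-amplification, and deposited them with 40 for undetected reactions. The normalized log2 values were made by the authors as 40.5 minus Ct and cyclic loess in limma (span 0.7, 5 iterations, U6 weighted 100). Rerunning this over the 14 samples gave the deposited values to within 5.3e-14. A deposited table of the authors' own comparison (differences, statistics and p-values) was not used.

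Probes with a value of at least 2 in at least 3 of the 6 samples were tested with lmFit and eBayes of limma 3.58.1 (R 4.3.3) over 9 epithelial samples, with population and mouse pool as terms (4 residual and 1.46 prior degrees of freedom), two-sided, with Benjamini-Hochberg adjustment over all 355 probes. Errors after ± are SE. The labels give same-numbered samples 1 mouse pool. Deviations of same-pool mature luminal and MaSC/basal samples correlated at 0.25 to 0.449, and those of different pools at -0.321 to 0.122. With luminal progenitors included, same-pool values were 0.0669 to 0.449 and different-pool values -0.321 to 0.167, so the ranges overlap. Because deviations were taken from each population's own mean, they cancel over the pools. Different-pool values are thus pushed down where same-pool values are positive, and the ranges are not independent. The pairing in the fit follows the labels. RT-PCR yields no read depth, and having 3 samples a group limits the precision.

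Named miRNAs were, in each direction, the 10 largest called differences detected in all 6 samples without overlap, up to 5 with a Ct of 40 in all samples of the lower group, and members of lists of families, clusters and marker miRNAs. Members and lists were chosen with earlier results of these data known. Alternatives were other sample sets, scalings and filters, no block, and leaving out each sample. The host spans and sequences are from RefSeq (GRCm38.p6).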

Additional observations from a re-analysis of the deposited data

Results flagged for a closer look

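In 13 of the 24 miRNAs chosen by size, 1 library stood apart from the rest of the 4 labelled MaSC/basal, and in each of the 13 it was the library labelled MaSC/basal 4. The gap to the nearest library was divided by the whole range, and ratios above Dixon's critical value were picked out. Chance picks about 1 in 20 groups of 4 when groups are independent and not selected. That rate does not apply here, because the 24 miRNAs were chosen by the difference between mature luminal cells and the other MaSC/basal libraries. For miR-211, those other libraries had nothing detected, so the floor set their spread. The 13 flags are probes of 1 library, are not independent, and restate the position of the library labelled MaSC/basal 4 given above. The library was the highest for miR-592 (ratio 0.883), miR-375 (0.881), miR-503 (0.925), miR-34a (0.879) and miR-211 (0.94). It was the lowest for miR-125b-3p (0.967), miR-34c (0.933), miR-204 (0.928), miR-34b-3p (0.902), miR-143 (0.853), miR-145 (0.844), miR-34c* (0.846) and miR-133a (0.844).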

How the results depend on the processing

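The counts of called probes, 173 in all, 72 higher and 101 lower, stayed within 1.5 times of these values except with the library labelled MaSC/basal 4 and with 3 of the scalings. No probe was called in the opposite direction in any alternative. With the library labelled MaSC/basal 4 and no block, 8 were called, 6 higher and 2 lower. With U6 as sole reference 35 were higher (134 lower), with median centring 109 were higher (88 lower), and with no normalization 97 were called, 52 higher and 45 lower. The median difference over all probes was -0.725, 0.221 and 0.415 in these 3, against -0.10. Without the replicate block, 149 were called, 61 higher and 88 lower, and 148 of them were also called with it. Of the 102 called named or listed probes, 11 lost their call without the block. Leaving out each sample in turn gave 133 to 171 calls, 57 to 73 higher and 74 to 101 lower. Of 58 named or listed called probes with a log2 difference of at least 2 in size, 45 were called in every alternative other than the one with the library labelled MaSC/basal 4, and of 44 smaller ones, 3 were. The cause of these changes was not tested.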
